A study of Rattus norvegicus with 60 samples.

Results

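A bleed in the left knee of a rat could leave marks in tissue that did not bleed, and a mark carried by the whole animal should appear in more than 1 tissue. The 38 samples described here, of 60 in the study, address that question. They are the contralateral right knee (11 arrays) and the contralateral right popliteal lymph node (11 arrays) of 11 bled rats, and the right knee (7 arrays) and right node (9 arrays) of rats given a sham procedure. All members were chosen by their sample labels. The difference between contralateral and sham knee was set against the difference between contralateral and sham node for 18166 named genes, to find which differences both tissues shared and which lay in a single tissue.

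All 20 rats had haemophilia A, a lack of coagulation factor VIII, so the sham rats carried the same defect. Tissue was taken 24 h after the bleed had been induced in 11 rats or the sham procedure carried out in 9. Intra-articular tissue of the knee and the popliteal node, which drains the lower hind limb, gave total RNA for 1 rat gene array per sample. Per the labels that knee was injured, and the distant effects of injury and of blood cannot be told apart. No strain, age, time of day or array batch is given. Bled and sham rats were separate animals, and 2 sham knees (rats C4 and C8) yielded too little RNA for an array. Knee and node of a rat share the animal but not the array.

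The shared genes include much of the circadian clock. In nearly every cell Bmal1 and its partners Clock or Npas2 bind E-box sequences and switch on the Per, Cry and Nr1d genes and the factors Dbp and Tef; the Per and Cry proteins then shut off Bmal1, and the Nr1d proteins repress the Bmal1 gene through ROR elements. Dbp and Tef in turn bind D-boxes, and Bhlhe40 and Bhlhe41 (Dec1 and Dec2) compete for E-boxes. A second familiar whole-body response, to infection, injury or stress, runs through circulating cytokines and glucocorticoids and raises acute phase proteins and the zinc-binding metallothioneins, whose promoters hold metal response elements.

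The promoter stretches that hold such elements in the leading shared genes are shown because the genes fall into these 2 responses. They come from RefSeq promoters of the rat assembly GRCr8 (250 bases before to 50 after the first listed start), read 5′ to 3′ on the gene's strand, with each match to the element named on its line in capitals. The Mt2A stretch also holds an E-box, left in lower case.
Bhlhe41, E-box, chr4:180569386-180569415, minus strand: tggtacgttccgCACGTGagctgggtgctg
Bhlhe40, E-box, chr4:143174218-143174247, plus strand: agcgttgtccaaCACGTGagactcatgtga
Ciart, 3 E-boxes, chr2:186112250-186112351, minus strand: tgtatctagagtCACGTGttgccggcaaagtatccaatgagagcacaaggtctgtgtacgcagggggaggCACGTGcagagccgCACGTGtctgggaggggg
Tef, E-box, chr7:115206617-115206646, plus strand: cacctggcccagCACGTGtctacatcgttt
Per2, D-box, chr9:99497166-99497197, minus strand: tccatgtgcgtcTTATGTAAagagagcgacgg
Bmal1, ROR element, chr1:176766298-176766330, plus strand: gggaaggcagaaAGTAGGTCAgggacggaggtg
Mt1, 4 of 6 metal response elements, chr19:10833066-10833163, minus strand: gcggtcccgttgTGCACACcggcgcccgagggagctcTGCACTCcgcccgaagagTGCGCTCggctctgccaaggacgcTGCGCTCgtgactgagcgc
Mt2A, 2 of 4 metal response elements, chr19:10838855-10838940, minus strand: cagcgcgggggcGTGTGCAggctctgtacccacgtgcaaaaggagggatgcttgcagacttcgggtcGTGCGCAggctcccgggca

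Both strands were searched, so the capitals in Mt2A are the reverse complement of the element. A promoter was in the RefSeq table for 51 of the 63 shared genes. The E-box CACGTG, the same on both strands, lay in 9 of these 51 (17.6%) and in 7.85% of all 14564 promoters of that length. Besides Bhlhe41, Bhlhe40, Ciart and Tef, the 9 were Mt2A, Tmeff2, Epm2a, Cyp2j4 and Eif5a2. The promoters of the clock genes Dbp, Nr1d1 and Per2 held no E-box in this window. The D-box (TTATGTAA or TTACGTAA) lay in 2 of the 51, those of Per2 and Nrg4 (3.92% against 0.899% of all promoters). The ROR element (ANTAGGTCA or ANTGGGTCA) lay in 1 of the 51, that of Bmal1 (1.96% against 1.19%). The metal response element (TGCGCNC or TGCACNC) was as frequent in the shared genes (31.4%) as in all promoters (30.8%), but Mt1 held 6 and Mt2A and Dbp 4 each, while 0.618% of all promoters held 4 or more. A match describes the letters in this window only.

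The defining markers of each tissue were in place. The mean log2 level of the T cell markers ran from 9.62 to 10.26 in the contralateral and sham nodes and from 5.90 to 6.68 in the knees, and that of the synovial markers from 10.37 to 10.81 in these knees. Skeletal muscle genes varied widely between knees of both groups (6.09 to 12.05 contralateral, 6.07 to 11.94 sham), and none of 17 was called (none in the knee at an unadjusted p under 0.05, limma). In the nodes, the mean of 24 adipocyte genes ran from 7.93 to 8.52 (median 8.10) in the contralateral group and from 7.11 to 8.36 (median 7.50) in the sham group. The sham knee array of C5 and the sham node arrays of C2 and C9 correlated least with their groups (0.965, 0.984 and 0.966), so results that rest on them are also given without them. In bulk tissue, fewer cells of a type and less RNA per cell cannot be told apart.

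The differences called in both tissues were mostly upward, and most calls were made in a single tissue. With limma and Benjamini-Hochberg adjustment at 0.05, the contralateral knee differed from the sham knee in 443 genes (2.44% of 18166), 306 higher (1.68%) and 137 lower (0.754%). The contralateral node differed from the sham node in 1225 genes (6.74%), 674 higher (3.71%) and 551 lower (3.03%). Both tissues called 63 genes in the same direction (0.347% of all genes), of which 59 were higher (0.325%) and 4 lower (0.022%). Only 9 genes were called in opposite directions.

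These 63 genes were 14.2% of the genes called in the knee and 5.14% of those called in the node. Of the risen genes, the shared ones were 19.3% of the knee's and 8.75% of the node's, and of the fallen genes 2.92% and 0.726%. The 59 shared rises had a median log2 difference of 0.66 in the knee and 0.47 in the node, against medians over all genes of 0.01 and -0.00, which describes genes chosen by these calls. The difference was larger in the knee for 43 of the 63 and larger in the node for 20. A shared difference of at least 2-fold occurred in 14 genes in the knee and 3 in the node, and Mt2A was the single gene beyond it in both.

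**Figure D1:**
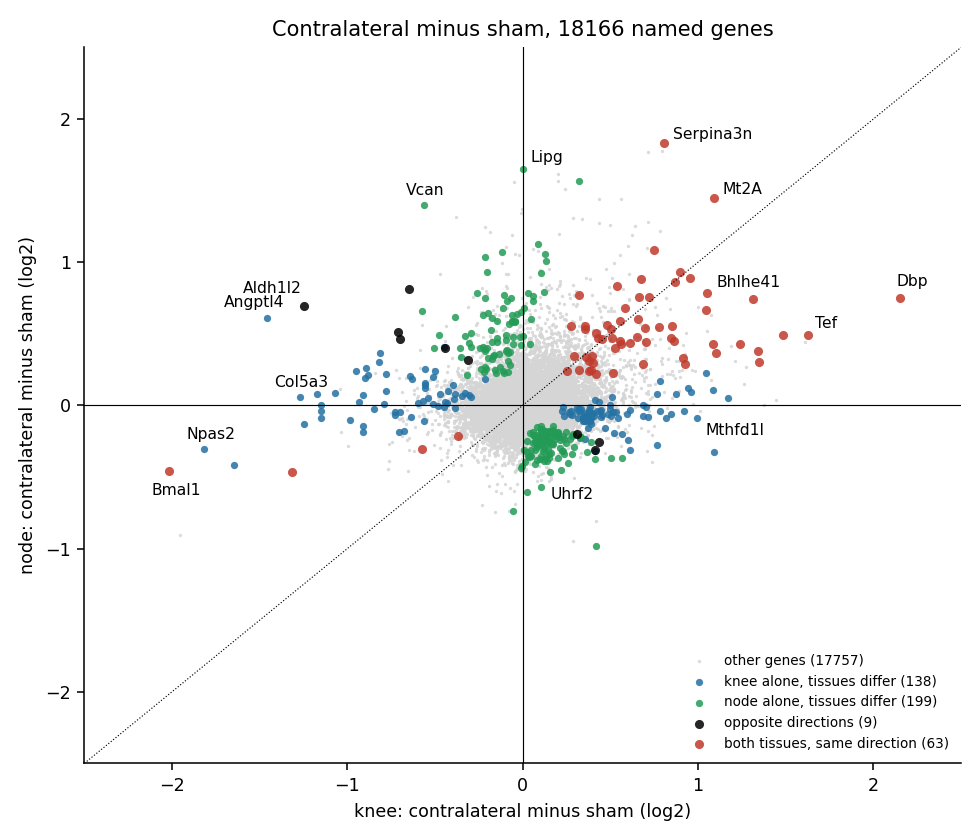
Each point is 1 of 18166 genes, with the log2 difference of contralateral minus sham knee on the horizontal axis and of contralateral minus sham node on the vertical axis. The 63 genes called in both tissues in the same direction lie mostly in the upper right, the 138 genes called in the knee alone with a called interaction and the 199 called in the node alone with one are in blue and green, and the dotted line marks equal differences.

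Whether a gene differed more in one tissue than in the other was tested as the tissue by condition interaction in a model of all 60 arrays. It was called for 512 genes (2.82%), 320 with the knee difference above the node difference (1.76%) and 192 below (1.06%). It was not called for 54 of the 63 shared genes. It was called for the other 9, with a difference of larger size in the knee each time: Dbp, Ciart, Tef, Bmal1, Tspan4, Per3, Per2, Nox4 and Cyp39a1. Neither Nox4 nor Cyp39a1 was shared without the sham arrays of C2, C5 and C9 together. Leaving out any of 15 single arrays also ended the sharing of Nox4, and any of 14 that of Cyp39a1. Of 371 genes called in the knee and not in the node, 138 had a called interaction and 233 did not, so those 233 are not shown to differ between tissues. Of 1153 genes called in the node and not in the knee, 199 had one and 954 did not. Since knee and node of a rat share the animal, the interaction was also tested on the difference of knee and node within each of 18 rats, where the replicate block left 213 calls, 41.8% of them with the knee difference above the node difference, against 62.5% of the 512.

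The number of calls changed without a few sham arrays and, in the node, with the adipocyte mean as a covariate. Without the sham arrays of C2, C5 and C9 the knee called 263 genes, the node 741, and 25 were shared, 22 of them among the 63. The higher share of the calls then fell from 69.1% to 54.0% in the knee and from 55.0% to 43.7% in the node, where falls outnumbered rises without C9 alone too (43.5% higher). With the muscle and adipocyte means as covariates the knee called 524 genes, the node 9 and both 1, Bhlhe41. The adipocyte mean differs between the node groups themselves, the median SE of a node difference rose from 0.0784 to 0.0954, and the node differences of the 63 shared genes kept a median of 0.80 of their size. The part of adipocyte RNA in the node calls was not tested. Centring the arrays on their medians raised the higher share from 69.1% to 86.5% in the knee and from 55.0% to 81.4% in the node, and called 105 shared genes.

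The clock repressors Bhlhe41, Nr1d1 and Bhlhe40 rose in both tissues, and their interactions were not called. Bhlhe41 (probe set 17796582), a repressor that competes with Bmal1 and Clock for E-boxes, ranged from 6.79 to 7.51 (median 7.10, log2 level) in the 7 sham knees and from 7.04 to 8.84 (median 8.24) in the 11 contralateral knees. Its node levels ranged from 6.37 to 7.11 (median 6.60) in 9 sham and from 7.06 to 7.79 (median 7.47) in 11 contralateral samples. In each tissue 10 of 11 contralateral samples lay above the highest sham sample. It was 2.08-fold higher in the knee (log2 difference 1.05 ± 0.18 SE, adjusted p = 0.000615, limma) and 1.72-fold higher in the node (0.79 ± 0.09, adjusted p = 1.95e-05). The difference between the tissues was 0.27 with a 95% interval from -0.13 to 0.66 (adjusted p = 0.576).

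Nr1d1 (probe set 17660843), the gene of the haem-binding repressor REV-ERBα, ranged from 10.62 to 11.43 (median 11.21) in sham and from 11.39 to 12.09 (median 11.87) in contralateral knees. Levels in the nodes ranged from 8.81 to 9.66 (median 9.41) in sham and from 9.60 to 10.58 (median 10.18) in contralateral samples. Again 10 of 11 contralateral samples in each tissue lay above all sham samples. The log2 differences were 0.67 ± 0.14 in the knee (adjusted p = 0.00684) and 0.76 ± 0.16 in the node (adjusted p = 0.00654), and their difference was -0.09 (interval -0.53 to 0.34). Bhlhe40, the close relative of Bhlhe41, rose by 0.84 in the knee and 0.47 in the node, and the difference of these was not called (adjusted p = 0.336). None of these 3 calls was lost on leaving out any of the 38 arrays in turn.

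Other clock genes moved the same way in both tissues but far more in the knee. Dbp (probe set 17616470), an activator that binds D-boxes, ranged from 8.81 to 10.15 (median 10.03) in sham and from 10.57 to 12.40 (median 11.99) in contralateral knees, with no overlap. In the nodes it ranged from 9.48 to 10.53 (median 10.27) in sham and from 10.40 to 11.38 (median 11.00) in contralateral samples, and the groups overlapped by 1 contralateral sample. It was 4.45-fold higher in the knee (log2 difference 2.15 ± 0.19) and 1.68-fold higher in the node (0.75 ± 0.15, adjusted p = 0.00445). The knee difference exceeded that of the node by 1.40 ± 0.24 (interval 0.91 to 1.89, adjusted p = 0.000495).

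Bmal1 (probe set 17619710), the activator at the centre of the loop, moved down. It ranged from 9.27 to 9.77 (median 9.35) in sham and from 6.58 to 9.02 (median 7.04) in contralateral knees, with no overlap. Its node levels ranged from 8.55 to 8.95 (median 8.78) in sham and from 8.09 to 8.71 (median 8.30) in contralateral samples, 10 of which lay below every sham sample. It fell by 2.02 ± 0.24 in the knee (adjusted p = 1.08e-05) and by 0.46 ± 0.08 in the node (adjusted p = 0.00109), with an interaction of -1.56 ± 0.25 (adjusted p = 0.000155). Without the sham arrays of C2, C5 and C9 the clock list of 16 genes still held 6 rises and 3 falls in the knee and 5 rises and 1 fall in the node. With the muscle and adipocyte covariates it held 7 rises and 3 falls in the knee, but 1 rise and no fall in the node.

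Tef, the relative of Dbp, rose by 1.62 ± 0.15 in the knee and 0.49 ± 0.12 in the node (interaction 1.13, adjusted p = 0.000495). Ciart, a repressor of Bmal1 and Clock, rose by 1.48 ± 0.20 and 0.49 ± 0.11 (interaction 1.00, adjusted p = 0.0117). The period gene Per3 rose by 1.34 ± 0.16 and 0.38 ± 0.11 (interaction 0.96, adjusted p = 0.00382), and Per2 by 1.10 ± 0.19 and 0.36 ± 0.09 (interaction 0.74, adjusted p = 0.0396). For each of these 4 genes the knee moved by more than 2-fold and the node by less. The node call of Per3 was lost on leaving out any of 13 arrays (adjusted p up to 0.0788), and the interaction of Per2 on leaving out any of 16 (up to 0.0753). Neither Tef nor Per3 was shared without the sham arrays of C2, C5 and C9 together.

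**Figure D2:**
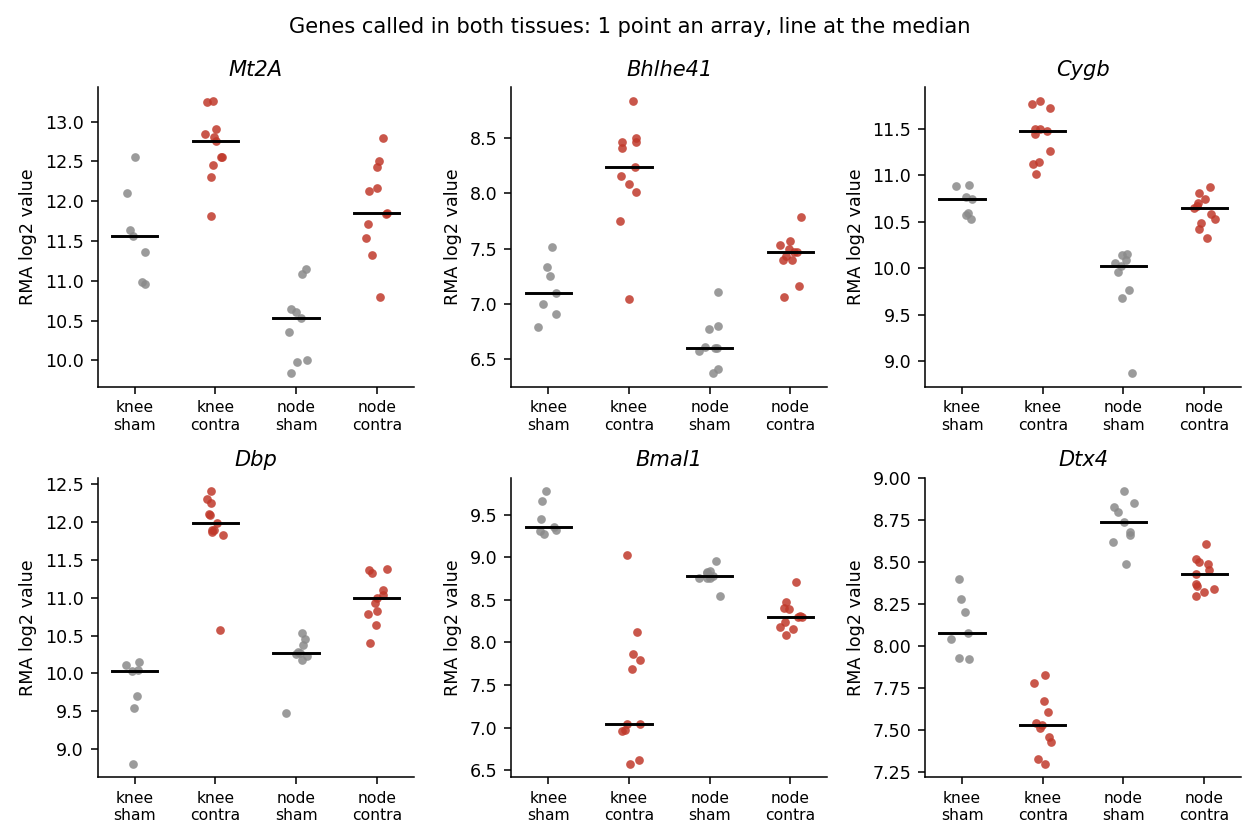
Log2 levels of 6 genes in each sham and contralateral knee and node, with 1 point per array and a line at each group's median. Cygb has no overlap between groups in either tissue, Mt2A and Bhlhe41 shift by a like amount in both, and Dbp and Bmal1 shift far more in the knee (medians 10.03 and 11.99 for Dbp) than in the node (10.27 and 11.00).

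Another set of clock genes was called in the knee alone. Npas2, the alternative partner of Bmal1, ranged from 10.05 to 10.45 (median 10.23) in sham and from 7.62 to 9.90 (median 8.24) in contralateral knees, with no overlap. Levels in the nodes ranged from 7.53 to 8.03 (median 7.77) and from 7.17 to 7.96 (median 7.52), with 6 of 11 contralateral samples below the lowest sham sample. It fell by 1.82 ± 0.26 in the knee (adjusted p = 9.81e-05), while the node difference was -0.31 ± 0.12 (adjusted p = 0.13), and the interaction was -1.51 (adjusted p = 0.0015). Clock itself fell by 0.54 ± 0.09 in the knee, against 0.05 ± 0.10 in the node (adjusted p = 0.835; interaction -0.59, adjusted p = 0.00972). Wee1, a mitotic kinase gene driven by E-boxes, rose by 0.78 in the knee against -0.04 in the node (interaction 0.82, adjusted p = 0.00743).

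The knee also called Per1 (0.89), Klf15 (0.98) and Nfil3 (-0.65), a repressor at D-boxes, but their interactions were not called (adjusted p = 0.234, 0.0526 and 0.45). The knee calls of Per1 and Nfil3 were lost without the sham arrays of C5 or C6, and that of Per1 also without C2 (adjusted p up to 0.0576 and 0.055). The cryptochrome genes Cry1 (-0.05 in the knee, -0.11 in the node) and Cry2 (0.20, -0.04) were called in neither. Rora, an activator at ROR elements, was called in the node (0.33, adjusted p = 0.0192) and differed by -0.06 in the knee. In all, 10 of 16 measured core clock genes were called in the knee and 8 in the node, where 2.44% and 6.74% of all genes were, and 7 were shared. Of 13 output genes, 5 were called in the knee, 3 in the node and 2, Dbp and Tef, in both. Without the sham arrays of C2, C5 and C9 the node called 1 output gene, and with the covariates none. Hlf and Nr1d2 were not measured under a single symbol. Time of day, hour of sampling and group cannot be told apart, since the labels give no time.

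Within the contralateral group the knee and node levels of several clock genes correlated from rat to rat. The relation was tested first for 8 leading shared genes over the 11 bled rats. For Bmal1, knee and node levels correlated at r = 0.90 (permutation p = 0.0007, adjusted 0.0056 over the 8 genes) and rho = 0.80 (adjusted p = 0.0322). For the other 7, Pearson adjusted p ran from 0.419 to 0.742. Without the 2 rats farthest from the median knee level, r for Bmal1 was 0.68 (exact permutation p = 0.0435, adjusted 0.348), so the call rested on those rats.

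The test was then extended, after that result was seen, to 14 clock genes. It was not run over all genes, so no share of all genes stands beside the counts below. Whether the relation is particular to clock genes was not tested. In the contralateral group 8 of 14 passed with Pearson's r (permutation, adjusted over the 14): Dbp (r = 0.83), Tef (0.75), Bmal1 (0.90), Npas2 (0.90), Per1 (0.78), Per2 (0.76), Per3 (0.80) and Ciart (0.72), with adjusted p from 0.0021 to 0.0201. With Spearman's rho 7 of these passed and Per3 did not (rho = 0.41, adjusted permutation p = 0.24), while Clock did (rho = 0.78, adjusted permutation p = 0.0194). Npas2, whose node difference from sham was not called, had rho = 0.86 (adjusted p = 0.0158), and Dbp rho = 0.83 (adjusted p = 0.0158). Without the 2 rats farthest from the median, r for these 8 ran from 0.33 (Ciart) to 0.79 (Dbp). Bhlhe41 was not among the 8 (r = 0.30, adjusted permutation p = 0.383).

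Rat K2 carried part of the relation. In both of its tissues it lay nearest to the sham rats, with Bmal1 at 9.02 in the knee and 8.71 in the node, Npas2 at 9.90 and 7.96, and Dbp at 10.57 and 10.40. Without K2, 4 of the 8 genes still passed the permutation test: Dbp (r = 0.83, adjusted p = 0.017), Npas2 (0.86, adjusted p = 0.017), Per1 (0.80, adjusted p = 0.0179) and Bmal1 (0.78, adjusted p = 0.0238). Clock (0.73, adjusted p = 0.017) joined them. Leaving out any other rat kept 6 to 8 of the 8.

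In the 7 sham rats none of the 14 genes passed by either coefficient (lowest adjusted permutation p 0.431 for Pearson and 0.278 for Spearman, with 0 and 2 genes at an unadjusted p under 0.05), and r ran from -0.68 to 0.71. The difference between the groups in this relation was not tested. On the bled side of the same 11 rats 3 genes passed with Pearson's r, Npas2 (0.89), Bmal1 (0.83) and Dbp (0.77), which were 0.78, 0.21 and 0.56 without the 2 farthest rats, and Npas2 alone with rho (0.90, adjusted permutation p = 0.00504). A different measure took the 18166 named genes within 1 contralateral rat and correlated the deviations from the group means in its knee and node. It gave r from 0.0064 to 0.16 (mean 0.09). That runs over genes and not over rats, so it is no background for the clock correlations.

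**Figure D3:**
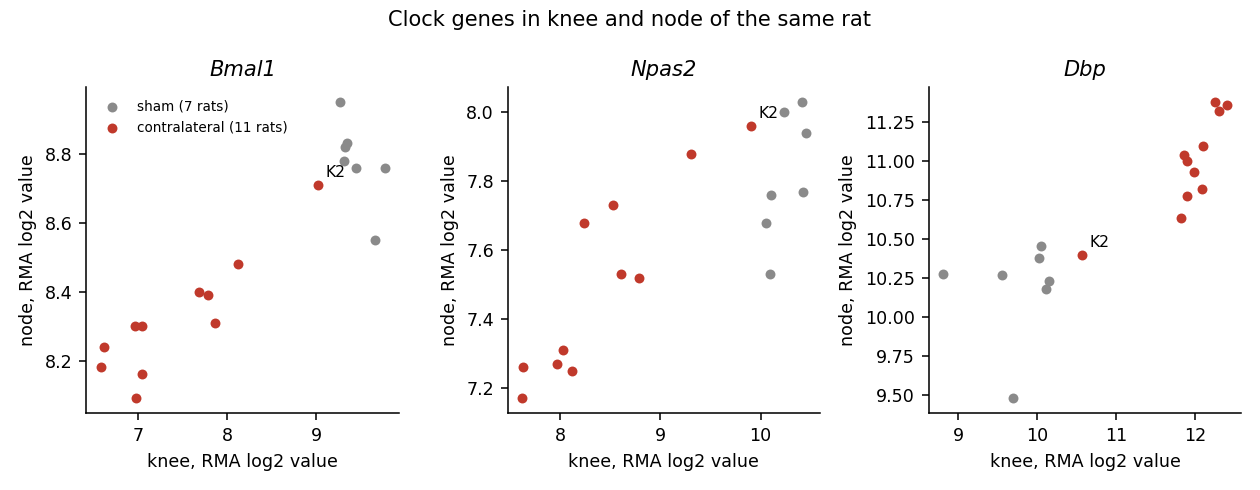
Log2 level in the knee (horizontal) against the node (vertical) of the same rat for Bmal1, Npas2 and Dbp, with 7 sham rats in grey and 11 bled rats (contralateral side) in red. Within the bled rats the tissues rise together (r = 0.90, 0.90 and 0.83), and K2, labelled, lies nearest to the sham rats.

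The metallothionein genes were among the largest rises that both tissues shared. Mt2A (probe set 17752700), which binds zinc and copper and is induced by glucocorticoids and metals, ranged from 10.96 to 12.55 (median 11.56) in sham and from 11.81 to 13.26 (median 12.76) in contralateral knees. In the nodes it ranged from 9.84 to 11.15 (median 10.53) in sham and from 10.79 to 12.79 (median 11.85) in contralateral samples. Above the highest sham sample lay 8 of 11 contralateral knees and 10 of 11 nodes. It was 2.13-fold higher in the knee (log2 difference 1.09 ± 0.18, adjusted p = 0.000381) and 2.73-fold in the node (1.45 ± 0.27, adjusted p = 0.00286). The interaction was -0.36, with an interval from -1.04 to 0.32. On the bled side the medians were higher still, 13.58 in the knee and 12.40 in the node.

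Mt1, its neighbour on chromosome 19, ranged from 9.48 to 10.58 (median 9.70) in sham and from 10.28 to 11.92 (median 10.72) in contralateral knees. Its node levels ranged from 9.74 to 10.65 (median 10.17) and from 10.24 to 11.52 (median 11.01). It rose by 1.05 ± 0.20 in the knee (adjusted p = 0.00298) and by 0.67 ± 0.18 in the node (adjusted p = 0.0309), a node call lost on leaving out any of 6 arrays (adjusted p up to 0.0774). The 2 genes are closely alike in sequence and may share probe signal. Another Mt1 probe set (17717103) was called in neither tissue. It differed by 0.81 in the knee (adjusted p = 0.0996, limma) and 0.64 in the node (adjusted p = 0.108). Another Mt2A probe set (17731750) was called in both and rose by 1.65 in the knee and 1.71 in the node (adjusted p = 0.000185 and 0.00897). Of 16 metallothionein and zinc genes, Mt1 and Mt2A were the 2 shared; the zinc exporter Slc30a1 rose in the knee alone (0.52, against 0.10), and Mt3 fell in the knee (-0.47, against -0.07), with neither interaction called.

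The acute phase genes Lbp and Serpina3n rose in both tissues. Lbp, whose product carries bacterial lipopolysaccharide to its receptor, ranged from 10.72 to 12.25 (median 11.32) in sham and from 11.66 to 13.14 (median 12.07) in contralateral knees. Levels in the nodes ranged from 6.66 to 8.33 (median 7.87) and from 7.96 to 9.40 (median 8.82). The groups overlapped in both tissues, with 3 of 11 contralateral knees and 7 of 11 nodes above all sham samples. It rose by 0.90 ± 0.18 in the knee (adjusted p = 0.00585) and by 0.93 ± 0.24 in the node (adjusted p = 0.0208), with an interaction of -0.03 (interval -0.66 to 0.59). The node call was lost without the sham array of C2 (adjusted p = 0.0504).

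Serpina3n, a protease inhibitor of the acute phase, rose by 0.81 ± 0.22 in the knee (adjusted p = 0.0468) and by 1.83 ± 0.41 in the node (adjusted p = 0.0092). The knee call was lost on leaving out any of 13 arrays (adjusted p up to 0.114), and 5 of 11 contralateral samples lay above all sham samples in each tissue. Of 26 acute phase and complement genes, 3 rose in the knee, 7 in the node, 2 were shared and none fell. Among all genes 1.68% rose in the knee, 3.71% in the node and 0.325% in both. The node's rises included Cfb, complement factor B (0.89 ± 0.13, adjusted p = 0.000395), against 0.38 in the knee (interaction adjusted p = 0.158). Il6 (0.40 in the knee, 0.49 in the node) and Il1b (0.45, 0.30) were called in neither tissue. Of 44 cytokine and chemokine genes 2 rose in the knee and 7 in the node, and Ccl5, a T cell attractant, was shared (0.66 and 0.60). Ccl5 was not shared on leaving out any of 4 arrays, without C2, C5 and C9 together, or with only the compared groups fitted.

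Of 30 glucocorticoid-responsive genes, 5 rose and 1 fell in the knee and 9 rose in the node, where 1.68% and 3.71% of all genes rose. Mt1, Mt2A and Hsd11b1 were shared. Hsd11b1, which turns inert glucocorticoid active, rose by 0.35 in the knee (adjusted p = 0.0477) and 0.55 in the node; it was not shared on leaving out any of 13 arrays, or without C2, C5 and C9 together. The standard target genes Fkbp5 (0.43 and 0.11) and Tsc22d3 (0.70 and 0.39, adjusted p = 0.104 and 0.1) were called in neither. Dusp1, a phosphatase of the stress kinases, rose in the node (0.80, adjusted p = 0.0324; up to 0.0723 on leaving out any of 7 arrays) and differed by 0.14 in the knee. The list's median difference was 0.29 in the knee and 0.27 in the node, against 0.01 and -0.00 over all genes. With the muscle and adipocyte covariates the node median was 0.06 and none of its 9 rises was called.

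The antioxidant target genes of Nfe2l2 gave 6 rises of 33 in the knee and 8 in the node, with 2 shared and none fallen. The shares of all genes that rose were 1.68% and 3.71%. The shared ones were Nqo1, a quinone reductase (0.58 and 0.68), and Gpx3, a secreted glutathione peroxidase (0.50 and 0.53). Their interactions were -0.09 and -0.03, neither called. Neither gene was shared without C2, C5 and C9 together, and Gpx3 (knee adjusted p = 0.0441) was not on leaving out any of 12 single arrays. Gsta1, a glutathione transferase, rose in the node (1.11 ± 0.16), where its groups did not overlap, and differed by 0.60 in the knee (adjusted p = 0.0762). Of the immediate-early genes, Zfp36, whose product destroys cytokine mRNA, rose by 0.70 ± 0.12 and 0.54 ± 0.13, and Ier3 by 0.86 and 0.45. All 11 contralateral knees lay above all sham knees for both of these genes. The node call of Ier3 was lost on leaving out any of 14 arrays (adjusted p up to 0.08). Neither Zfp36 nor Ier3 was shared without C2, C5 and C9 together.

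Cygb (probe set 17663623), the gene of cytoglobin, a haem protein of fibroblast-like cells, rose by a like amount in both tissues. It ranged from 10.53 to 10.89 (median 10.74) in sham and from 11.01 to 11.80 (median 11.48) in contralateral knees. In the nodes it ranged from 8.87 to 10.15 (median 10.02) and from 10.32 to 10.87 (median 10.65). The groups overlapped in neither tissue. It rose by 0.72 ± 0.12 in the knee (adjusted p = 0.000707) and by 0.76 ± 0.12 in the node (adjusted p = 0.000588), an interaction of -0.04 with an interval from -0.38 to 0.31. Its calls held without any of the 38 arrays.

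Several other shared rises had no list in common. Epm2a, the gene of the glycogen phosphatase laforin, ranged from 5.40 to 7.51 (median 6.17) in sham and from 6.70 to 8.63 (median 7.61) in contralateral knees, and from 4.40 to 5.40 (median 5.26) and 5.23 to 6.32 (median 5.90) in the nodes. It rose by 1.31 ± 0.25 in the knee and 0.74 ± 0.14 in the node (interaction 0.57, interval -0.01 to 1.15). Sh2d1b, an adaptor of natural killer cell receptors, rose by 0.87 and 0.86; its node groups did not overlap, and its knee call did not hold once the C5 sham array was left out (adjusted p = 0.0506). Tmeff2, a transmembrane protein gene, rose by 0.96 and 0.89, its knee call lost on leaving out any of 10 arrays (adjusted p up to 0.092).

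Tent5c, a poly(A) polymerase gene of plasma cells, rose by 0.75 in the knee and 1.09 in the node, and the prostaglandin transporter Slco2a1 by 0.67 and 0.89, with knee calls lost on leaving out any of 6 and 11 arrays (adjusted p up to 0.084 and 0.137). Xdh, the gene of xanthine dehydrogenase, rose by 0.54 and 0.83 and the galectin Lgals3 by 0.32 and 0.77, more in the node than in the knee without a called interaction (adjusted p = 0.419 and 0.174). Tspan4, a tetraspanin, rose by 1.09 in the knee and 0.43 in the node, and its interaction was called (0.66, adjusted p = 0.00255). The matrix glycoprotein Fbln1 rose by 0.85 and 0.56, and the adipokine-like Metrnl by 0.65 and 0.47. The antigen-processing genes Tapbp (0.42, 0.22) and Psmb9 (0.38, 0.24) were the 2 shared of that list of 21; their node calls were lost on leaving out any of 7 and 10 arrays (adjusted p up to 0.0812 and 0.0881).

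The shared falls were 4 genes: Bmal1, Spon2, Dtx4 and Map4k4. Dtx4 (probe set 17640818), an E3 ubiquitin ligase linked to Notch, ranged from 7.92 to 8.40 (median 8.08) in sham and from 7.30 to 7.83 (median 7.53) in contralateral knees, with no overlap. Its node levels ranged from 8.49 to 8.92 (median 8.74) and from 8.30 to 8.61 (median 8.43), 7 contralateral samples lying below all sham samples. It fell by 0.58 ± 0.10 in the knee and 0.31 ± 0.07 in the node (adjusted p = 0.000721 and 0.00737, limma), and no left-out array removed a call.

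Spon2, a secreted matrix protein, fell by 1.32 ± 0.29 in the knee (adjusted p = 0.014) and 0.47 ± 0.14 in the node (adjusted p = 0.0468), a node call lost on leaving out any of 14 arrays (adjusted p up to 0.0853). Its contralateral knees split: 9 lay below the lowest sham knee (9.10) and 2 above the highest (9.57). Map4k4, a kinase upstream of stress signalling, fell by 0.37 ± 0.07 and 0.21 ± 0.06, a node call lost on leaving out any of 8 arrays (adjusted p up to 0.0662).

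Averaging the knee and node of each rat makes the animal the replicate. By construction it favours differences that both tissues share and cancels opposed ones. Over 18 rats (11 bled, 7 sham), 680 genes were called (3.74%), 550 higher (3.03%) and 130 lower (0.716%). These used the same arrays, and all 63 shared genes were among the 680, as were 146 called in the knee alone, 300 in the node alone and 171 in neither. Mt2A was 1.29 ± 0.19 higher in the rat mean (adjusted p = 0.00116), Bhlhe41 0.92 ± 0.12 (adjusted p = 0.000752), Cygb 0.78 ± 0.10 and Lbp 0.96 ± 0.16, while Bmal1 was lower by 1.24 (log2 difference -1.24 ± 0.16).

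Among genes called in neither tissue but in the rat mean were several with positive differences in both: the interferon-stimulated Ifit3 (0.76 in the knee, 0.69 in the node, 0.70 in the rat mean, adjusted p = 0.0317) and Rsad2 (1.05, 0.52, 0.78), the chemokine Ccl19 (0.58, 0.42, 0.50) and the haemoglobin gene Hba-a1 (1.00, 0.69, 0.91, adjusted p = 0.0113). Leaving out single rats ended the calls of Ifit3, Rsad2 and Ccl19 (adjusted p up to 0.069, 0.08 and 0.058). Of 34 interferon-stimulated genes none was called in the knee (7 rose at an unadjusted p under 0.05, limma), 6 rose in the node and 6 in the rat mean. Among all genes 3.71% rose in the node and 3.03% in the rat mean. Of 8 erythroid genes 2 rose in the rat mean and none in a tissue. With rat as a random block in the model of 60 arrays, 1332 genes were called. Leaving out the sham rats C2, C5 and C9 left 42, and leaving out C9 alone 399. The covariates left none, with 1823 genes at an unadjusted p under 0.05 in limma.

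Matrix genes fell in the knee and not in the node. Of 42 collagen and fibroblast matrix genes, 13 fell and none rose in the knee (0.754% of all genes fell there), whereas 7 rose and 1, Spon2, fell in the node. The interaction was called for 12, all with the knee below the node. The list's median difference was -0.27 in the knee and 0.18 in the node, and the knee's 13 falls were also 13 with the muscle covariate and 11 without the sham array of C5. The knee's falls included the chains of fibrillar collagen Col1a1, Col1a2, Col3a1, Col5a1, Col5a2 and Col5a3 and of Col6a2, Col6a3 and Col6a6, with Postn, Loxl2 and Fbn1.

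Col5a3 (probe set 17850098) ranged from 9.13 to 9.63 (median 9.25) in sham and from 7.57 to 8.67 (median 8.19) in contralateral knees, with no overlap. Levels in the nodes ranged from 6.35 to 6.88 (median 6.58) and from 6.20 to 6.95 (median 6.80), fully overlapping. It fell by 1.27 ± 0.15 in the knee (adjusted p = 9.38e-06) and differed by 0.06 ± 0.09 in the node (adjusted p = 0.77), an interaction of -1.33 ± 0.17 (adjusted p = 1.92e-06). Col5a1 fell by 0.91 ± 0.12 against 0.07 in the node, and Col6a6 by 1.25 ± 0.20 against -0.13. Creb3l1, a factor that drives collagen secretion, fell by 0.81 against 0.37 in the node (interaction -1.18, adjusted p = 7.85e-06), and Thy1, a fibroblast surface protein, by 0.63 against 0.18. Arsi, a sulfatase, ranged from 7.98 to 8.82 in sham and from 6.50 to 7.51 in contralateral knees and fell by 1.17 ± 0.14, against 0.08 in the node. All 11 contralateral knees lay below all sham knees for Col5a1, Col5a3, Col6a6, Creb3l1 and Arsi. These genes were chosen for their differences, which favours such separation, and the share of all genes without overlap was not counted. The 23 synovial lining and fibroblast markers gave 1 fall in the knee and 5 rises in the node. Among all genes 0.754% fell in the knee and 3.71% rose in the node. Without the sham arrays of C2, C5 and C9 this list held 2 falls in the knee and 1 rise in the node. With the covariates it held 1 of each.

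Lipid genes made up another part of the knee's falls. Scd, the desaturase that makes monounsaturated fat, reached 11.82 (median 11.11) in sham and ranged from 8.44 to 10.83 (median 9.19) in contralateral knees, 10 of which lay below all sham knees, and it fell by 1.65 ± 0.30. In the node the difference was -0.42 (adjusted p = 0.0829), and the interaction (-1.23, adjusted p = 0.0326) was lost without single sham arrays of C2, C5 or C6 (adjusted p up to 0.0816). Angptl4, an inhibitor of lipoprotein lipase induced by fasting, fell by 1.46 in the knee (adjusted p = 0.0177) against 0.61 in the node (interaction -2.07, adjusted p = 0.0168), a knee call that did not hold without array C5 of the sham group (adjusted p = 0.0528). The uncoupling protein Ucp3 fell by 1.15 and Dhcr7, the last enzyme of cholesterol synthesis, by 0.55, with node differences of 0.00 and 0.16 and knee calls lost on leaving out any of 12 and 9 arrays (adjusted p up to 0.116 and 0.107). Of 25 fatty acid and sterol synthesis genes, 1 rose and 3 fell in the knee and 1 rose in the node. Of 26 genes of fatty acid use 2 fell in the knee and 1 rose in the node. In the knee 0.754% of all genes fell.

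The rises called in the knee alone with a called interaction were headed by genes of other functions. Mthfd1l (probe set 17611443), a mitochondrial folate enzyme, ranged from 5.26 to 5.68 (median 5.52) in sham and from 5.79 to 6.80 (median 6.60) in contralateral knees, with no overlap. In the nodes it ranged from 8.01 to 8.23 and from 7.85 to 8.31. It rose by 0.99 ± 0.12 in the knee (adjusted p = 1.39e-05) against -0.09 ± 0.06 in the node, with an interaction of 1.08 ± 0.13 (adjusted p = 5.87e-07). Nat8f3, an acetyltransferase family gene, rose by 1.17 against 0.05 (interaction adjusted p = 0.00172), and Pik3ip1, an inhibitor of phosphoinositide 3-kinase, by 1.08 against 0.11 (0.00859). Fam169b rose by 1.09 against -0.33 (0.000836). Slc15a2, a peptide transporter, rose by 0.61 against -0.31, and Cmklr2, a chemerin receptor, by 0.85 against -0.06; the interaction of Slc15a2 was lost on leaving out any of 24 arrays and the knee call of Cmklr2 any of 7 (adjusted p up to 0.0861 and 0.112).

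Of 23 detoxification enzymes, 8 rose and 1 fell in the knee and 4 rose in the node, where 1.68% and 3.71% of all genes rose. Adh1c, an alcohol dehydrogenase, was called in both (1.24 and 0.43), and 4 of the 23 had a called interaction. Fmo2, a flavin monooxygenase, rose by 1.61 in the knee against 0.44 in the node, but its interaction was not called (1.17, interval 0.43 to 1.91, adjusted p = 0.08). Ephx1, an epoxide hydrolase, rose by 1.07 in the knee, with 0.63 in the node just short of a call (adjusted p = 0.055). The natural killer and cytotoxic cell genes Prf1 (0.70), Gzma (0.50) and Gzmk (0.48) rose in the knee, 3 of 14, with node differences of 0.09, -0.03 and 0.49 and no called interaction. Single sham knees (C5 or C9 for Prf1, C6 for the others) ended these calls, with adjusted p up to 0.0643, 0.0501 and 0.0564.

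**Figure D4:**
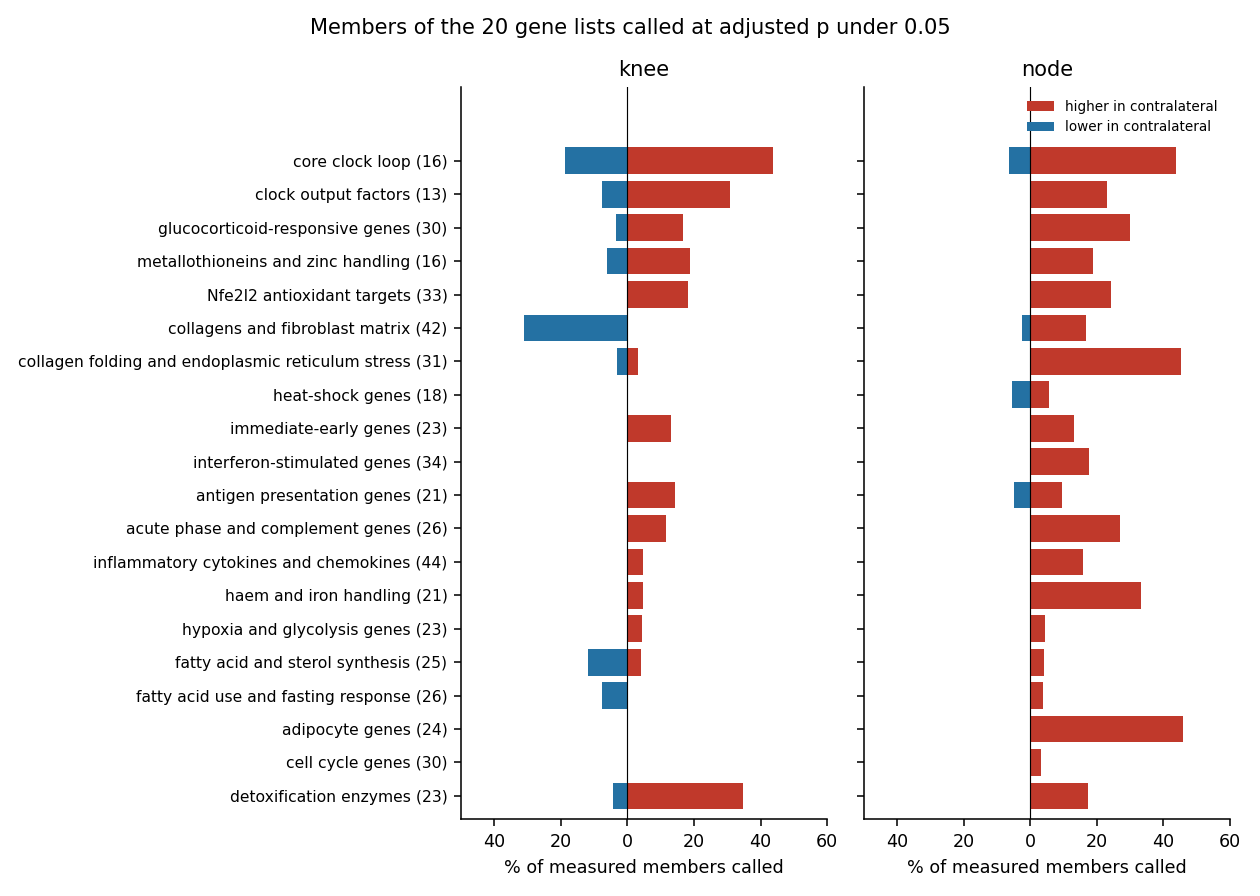
Share of the measured members of 20 gene lists (percent, horizontal) that were called higher (red) or lower (blue) in contralateral than in sham samples, for the knee and the node. The core clock list is high in both panels, the collagen list falls in the knee (13 of 42), and the adipocyte list (11 of 24) and the endoplasmic reticulum list (14 of 31) rise in the node.

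In the node, macrophage, matrix and lipid genes rose that were not called in the knee. Vcan, the gene of the matrix proteoglycan versican, ranged from 5.79 to 7.56 (median 6.64) in sham and from 7.46 to 8.72 (median 8.31) in contralateral nodes, 10 of 11 above all sham nodes. In the knees it ranged from 9.94 to 11.16 (median 10.38) and from 9.20 to 11.27 (median 9.76). It rose by 1.40 ± 0.25 in the node (adjusted p = 0.00232) against -0.56 in the knee (adjusted p = 0.123), an interaction of -1.96 ± 0.33 (adjusted p = 0.00033). Lipg, endothelial lipase, ranged from 7.04 to 8.13 (median 7.66) in sham and from 8.48 to 9.82 (median 9.21) in contralateral nodes, with no overlap. It rose by 1.65 ± 0.27 in the node against 0.00 in the knee (interaction -1.65, adjusted p = 0.00724).

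C3ar1, the receptor of the complement fragment C3a, ranged from 5.25 to 6.51 (median 6.05) in sham and from 6.76 to 8.65 (median 7.66) in contralateral nodes, again with no overlap, and rose by 1.57 ± 0.24 against 0.32 in the knee (interaction adjusted p = 0.0212). Of 20 monocyte and macrophage markers 8 rose in the node and 2 in the knee, and Gpnmb was shared (0.59 and 0.55). Gpnmb was not shared on leaving out any of 12 arrays, or without C2, C5 and C9 together. Among all genes 3.71% rose in the node and 1.68% in the knee. The resident macrophage gene Vsig4 rose by 1.77 ± 0.29 in the node, against 0.71 in the knee (adjusted p = 0.0843), and Cd163 by 1.27 against 0.44; their interactions were not called (adjusted p = 0.13 and 0.295). The mean level of the macrophage list ran from 9.69 to 10.41 in contralateral and from 9.09 to 9.88 in sham nodes, and from 9.91 to 10.42 and 9.41 to 10.16 in the knees. Its part in the results was not tested.

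Plasma cell genes and the protein folding machinery rose together in the node. Fkbp11, a prolyl isomerase of the secretory pathway, ranged from 7.43 to 7.99 (median 7.82) in sham and from 8.45 to 9.63 (median 8.87) in contralateral nodes, with no overlap. In the knees it ranged from 7.72 to 8.57 and from 7.42 to 8.96. It rose by 1.07 ± 0.16 in the node (adjusted p = 0.000395) against -0.12 in the knee (interaction -1.19, adjusted p = 0.00095). Mzb1, which helps assemble immunoglobulin, rose by 0.93 against -0.20 (interaction adjusted p = 0.0127), and Xbp1, the factor of the unfolded protein response and of plasma cells, by 0.64 against -0.03 (0.0243).

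Among 15 genes of plasma cells and germinal centres, 7 rose in the node (Jchain, Sdc1, Prdm1, Xbp1, Mzb1, Derl3 and Pou2af1) and none in the knee, where none rose and 1 fell at an unadjusted p under 0.05 (limma). Of 31 folding and endoplasmic reticulum genes 14 rose in the node, while in the knee Herpud1 rose and Aldh1l2 fell. The share of all genes that rose in the node was 3.71%. The interaction was called for 3 of the 15, and for 4 of the 31, 3 of them with the knee below the node. The mean level of the plasma cell list ran from 7.90 to 9.04 in contralateral and from 7.50 to 8.15 in sham nodes. The folding list held 9 rises without the sham node arrays of C2 and C9, and none with the adipocyte covariate, under which Fkbp11 (1.04) and Sdc1 (0.76) were among the 9 genes still called in the node. The median node difference was 0.28 with and without the covariates for the folding list, and 0.47 without and 0.49 with it for the plasma cell list.

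Adipocyte genes rose in the node and not in the knee: 11 of 24 against none, with medians of 0.64 and -0.13. Among all genes 3.71% rose in the node and 1.68% in the knee. At an unadjusted p under 0.05 (limma) 19 rose in the node and 1 in the knee. Cidec, of the lipid droplet, rose by 1.51, the hormone gene Lep by 1.44, the fat cell factor Pparg by 1.06 and the glycerol enzyme Gpd1 by 1.04. The interaction was called for 3 of 24. It was called for Pparg (-0.93, adjusted p = 0.0379) but lost on leaving out any of 16 arrays (up to 0.0617), and for Gpd1 (-1.25, adjusted p = 0.0488) but lost on leaving out any of 29 (up to 0.081); for Cidec it was not called (adjusted p = 0.0657). Without the sham node arrays of C2 and C9 the list held 5 rises.

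The 8 leading genes called lower in the node alone, with a called interaction, had positive differences in the knee. They were ranked by the size of the interaction, which favours such genes. Uhrf2, a reader of modified DNA and ubiquitin ligase, ranged from 10.71 to 11.38 (median 10.95) in sham and from 10.20 to 10.70 (median 10.32) in contralateral nodes, with no overlap, and fell by 0.57 ± 0.09 (adjusted p = 0.000513). Its knee difference was 0.11 (interaction 0.68, adjusted p = 0.00141). Cecr2, a chromatin remodelling gene, fell by 0.40 and also did not overlap in the node; its interaction (0.66, adjusted p = 0.0285) was lost without the sham knee array of C3 (adjusted p = 0.0512). The B cell receptor partner Cd72 fell by 0.37 in the node against 0.50 in the knee (interaction 0.87, adjusted p = 0.00568), and Sting1, the sensor of cyclic dinucleotides, by 0.33 against 0.36 (0.69, adjusted p = 0.00384). Paxbp1 fell by 0.45 and Ccdc88c by 0.38. Cd72 was 1 of 16 B cell markers called in the node and Lat 1 of 21 T cell markers, both lower, where 3.03% of all genes were.

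Of the 9 genes called in opposite directions 3 were higher in the knee and 6 lower. Kdelr3, which returns escaped proteins to the endoplasmic reticulum, ranged from 8.70 to 9.48 (median 9.27) in sham and from 7.66 to 9.12 (median 8.55) in contralateral knees. Its node levels ranged from 6.32 to 7.17 (median 6.89) and from 6.81 to 8.26 (median 7.77). It fell by 0.65 ± 0.15 in the knee and rose by 0.81 ± 0.18 in the node (interaction -1.46 ± 0.24, adjusted p = 0.000248). Aldh1l2, a mitochondrial folate enzyme induced by amino acid stress, fell by 1.25 ± 0.26 in the knee and rose by 0.70 ± 0.20 in the node, where its groups did not overlap (interaction -1.94, adjusted p = 0.000495); the node call was lost on leaving out any of 9 arrays (adjusted p up to 0.0851).

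The stromal genes Adamts15, a proteoglycan protease (-0.70 and 0.46), and Cd248, endosialin (-0.71 and 0.51), went the same opposed way, with interactions of -1.16 and -1.22. The knee call of Cd248 was lost on leaving out any of 14 arrays (adjusted p up to 0.0883), and the node call of Adamts15 was lost without the sham array of C2 (adjusted p = 0.0562). In the other direction Rasgrp2, an activator of Rap1 in lymphocytes and platelets, rose by 0.41 in the knee and fell by 0.31 in the node (interaction 0.73, adjusted p = 0.000215), a knee call that ended without array C5 of the sham group (adjusted p = 0.0501). Ralgps2 (0.44 and -0.26) and Spout1 (0.31 and -0.20) did likewise, with a node call lost on leaving out any of 11 arrays (adjusted p up to 0.109) and a knee call any of 13 (up to 0.113).

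**Figure D5:**
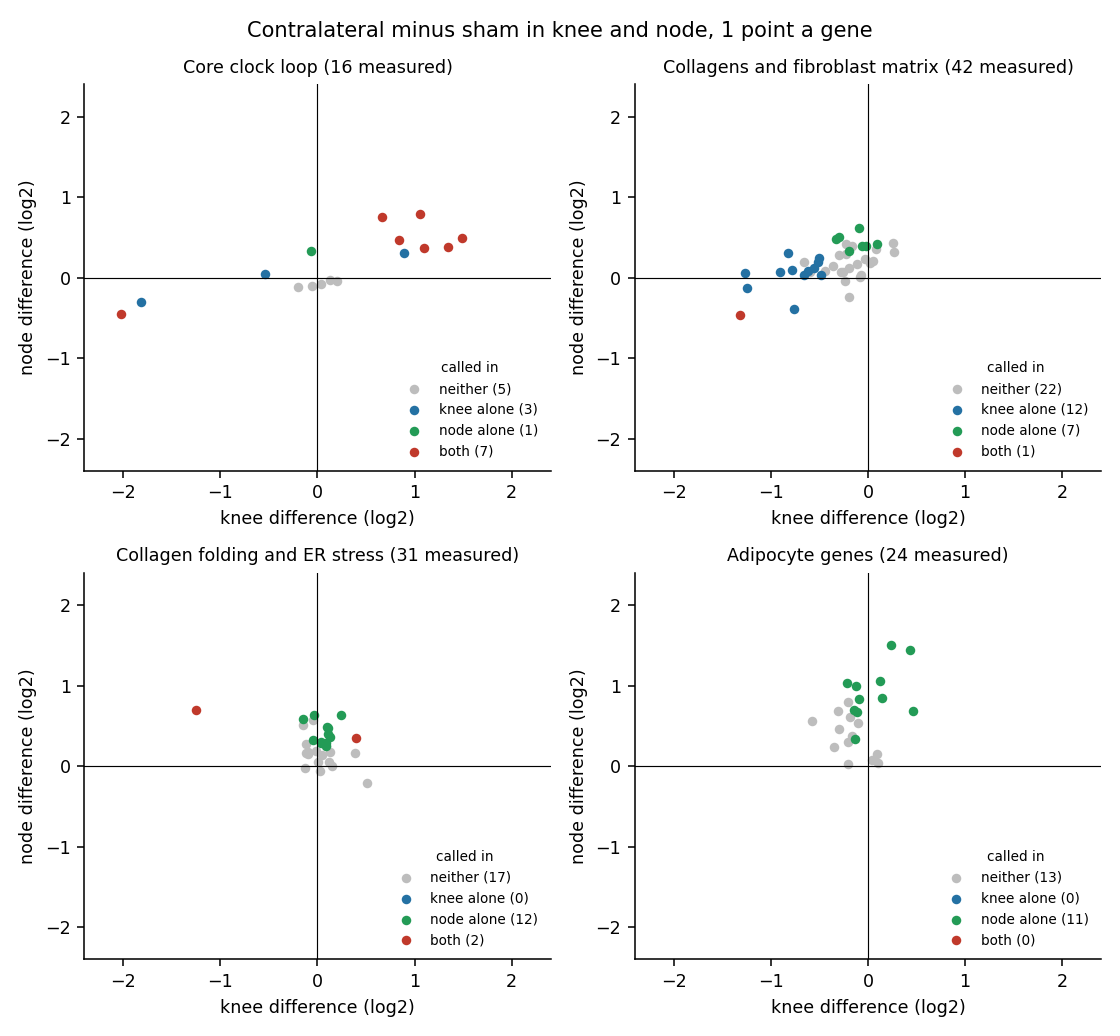
Measured members of 4 gene lists, each gene a point, placed by the log2 differences of contralateral minus sham knee and of contralateral minus sham node. Colours mark genes called in neither tissue, the knee alone, the node alone or both, and the legends give their numbers. Of 16 core clock genes 7 were called in both; of 42 collagen and matrix genes 12 were called in the knee alone, and of 24 adipocyte genes 11 in the node alone.

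Of 21 haem and iron genes 1 rose in the knee and 7 in the node, where 3.71% of all genes rose; the node held 2 rises without the sham arrays of C2 and C9 and none with the covariates. Hmox1, haem oxygenase, differed by -0.19 in the knee and by 1.21 ± 0.41 in the node and was called in neither (adjusted p = 0.655 and 0.0831). Arg1 was called in neither (-0.21 and 0.12). The remaining lists gave few calls. Of 23 hypoxia and glycolysis genes 1 rose in each tissue, and of 18 heat-shock genes 1 rose and 1 fell in the node. Of 30 cell cycle genes 1 rose, in the node, and of 16 neutrophil genes 2 rose there. The mast cell, cartilage, dendritic cell, endothelial, node stroma, Schwann cell and keratinocyte lists each held 0 to 3 calls in either tissue.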

How the data were processed

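The authors deposited log2 expression levels of 36685 probe sets. The submitters' processing notes name RMA and, as the program, Affymetrix Expression Console (version 1.4.46); whether both tissues were normalized together is not given in the sources used here. Array medians lay between 5.64 and 5.94. Array annotation named 1 gene for 18511 probe sets and several for 575; the other 17599 entered the tests without a name. A gene (18166 in all) was represented by its brightest probe set on average. Each array is 1 labelled sample of 1 rat.

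Models were fitted with limma 3.58.1 in R 4.3.3: 3 groups within a tissue (29 knee and 31 node arrays), 6 groups over 60 arrays for the interaction, and the mean of knee and node per rat. P-values were adjusted by Benjamini-Hochberg over all probe sets and called under 0.05; differences are log2 contralateral minus sham, ± SE. Permutation tests (two-sided, 100000 resamples, exact under 10 rats) used Python 3.11.15 with scipy 1.17.1. The scripts were checked on made-up data with known answers.

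Members and the 36 gene lists (20 of pathways, 16 of cell markers) were chosen with earlier results of these data known. Named genes were the 12 largest shared differences each way by the smaller tissue, the 8 largest by interaction called in a single tissue each way, the 4 largest opposite each way, up to 4 called members per list, and a fixed set of clock, metallothionein and inflammation genes. Others, among them further shared genes, were chosen after their values were seen. Such choices favour genes whose groups do not overlap, and overlap was not counted over all genes.

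Knee and node of a number come from the same rat, per the labels. Deviations from group means correlated between them from 0.0064 to 0.16 in contralateral and from -0.23 to 0.17 in sham rats, and limma's duplicateCorrelation gave 0.078 in the knee model, 0.266 in the node model and 0.044 in the joint model.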

Additional observations from a re-analysis of the deposited data

Results flagged for a closer look

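For 71 genes the sham knees and the sham nodes, 142 groups in all, were checked, and 14 had a single array far from the rest of its group, where chance gives about 1 in 20. Of these, 8 were the sham node array of C9, which was the lowest for Bmal1 (log2 level 8.55), Ciart (5.27), Clock (8.66), Cygb (8.87), Dbp (9.48), Epm2a (4.40) and Sh2d1b (6.14) and the highest for Sting1 (9.92). The sham node array of C2 stood apart for Cd72 (10.89), Kdelr3 (6.32) and Ralgps2 (9.91). Sham knee arrays stood apart for Cmklr2 (C5, 5.50), Hpgds (C1, 7.42) and Tsc22d3 (C3, 10.15). Their part in the results was not tested beyond the values without C2, C5 and C9.

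The tissue by condition interaction (knee difference minus node difference, log2, limma) was called for 46 of the same 71 genes. The clock genes were Dbp (1.40), Tef (1.13), Ciart (1.00), Per3 (0.96), Per2 (0.74), Clock (-0.59), Npas2 (-1.51) and Bmal1 (-1.56). The knee stood above the node for Fam169b (1.42), Nat8f3 (1.11), Mthfd1l (1.08), Cmahp (1.04), Pik3ip1 (0.97), Zfp385b (0.97), Rasgef1b (0.93), Slc15a2 (0.92), Cmklr2 (0.90), Cd72 (0.87), Ccdc88c (0.79), Rasgrp2 (0.73), Ralgps2 (0.69), Sting1 (0.69), Uhrf2 (0.68), Paxbp1 (0.67), Cecr2 (0.66), Arhgap45 (0.65) and Spout1 (0.51). It stood below the node for the matrix and stromal genes Vcan (-1.96), Col5a3 (-1.33), Arsi (-1.26), Cd248 (-1.22), Creb3l1 (-1.18) and Adamts15 (-1.16). The same held for the metabolic genes Angptl4 (-2.07), Aldh1l2 (-1.94), Lipg (-1.65), Gpd1 (-1.25), Scd (-1.23), Hpgds (-1.23) and Ucp3 (-1.15). It also held for Kdelr3 (-1.46), C3ar1 (-1.25), Capn6 (-1.19), Fkbp11 (-1.19), Mzb1 (-1.13) and C1h11orf24 (-1.05).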

How the results depend on the processing

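The 5 counts of calls (knee 443, node 1225, shared 63, interaction 512, rat mean 680) changed in size with the processing. Fitting only the compared groups gave 247 knee, 807 node and 291 interaction calls. Centring gave 105 shared, 333 interaction and 1203 rat mean calls (96.3% higher, against 80.9%), and quantile normalization made 50.8% of interaction calls positive, against 62.5%. Without dim probe sets 102 genes were shared and 778 had an interaction, and with 1 probe set per gene 96 were shared. Array weights gave 252 knee, 35 shared and 346 rat mean calls. Without the sham arrays of C2, C5 and C9 there were 263 knee, 741 node, 25 shared, 315 interaction and 42 rat mean calls, and with the covariates 9 node, 1 shared, 127 interaction and 0 rat mean calls; with them Gpd1 reversed in the node (-0.0593) and in the rat mean (-0.0883). At an adjusted p under 0.01 the counts were 142, 298, 16, 111 and 165. The replicate block by rat gave 449 knee, 1326 node, 69 shared, 662 interaction and 1332 rat mean calls, and the paired difference within rats 213 interaction calls. Without the 2 farthest rats 0 of 8 genes, against 1, kept a relation of knee and node. Leaving out each array in turn gave 263 to 502 knee, 672 to 1525 node, 41 to 78 shared, 334 to 758 interaction and 399 to 805 rat mean calls; the fewest came without the sham arrays of C5 (knee, interaction), C2 (node, shared) and C9 (rat mean). Counts over 1.5 times lower also came without sham knee C6 (277 knee) and, for the rat mean, without rats K5 (418), C2 (420), K8 (431) and C5 (444). Of the 63 shared genes 23 kept their calls throughout and 40 lost one. The cause of these changes was not tested.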
